A study of Mus musculus with 6 samples.

Results

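The 8 mouse genes described here are Kcne3, Tmem119, Sec14l2, Luzp1, Pald1, Nol4l, Rilpl1 and Nek6. They were picked from this experiment because their transcripts were higher after 2 h of transforming growth factor β1 (TGF-β1), and because they are seldom listed among the known targets of that factor, a description that was not tested here. Their changes are therefore given as a description, without a test. The 8 genes are read by 15 of the 41174 probes on the arrays, through the RefSeq accession each probe carries, and all 15 passed the filter on dim probes. Each gene stands as 1 of 29195 genes and transcripts in the fit.

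The cells were Lhx2 cells, a mouse line that resembles blood progenitors, carries the introduced homeobox gene Lhx2 and is grown with stem cell factor at 100 ng/ml and interleukin 6 at 10 ng/ml. All cells, the controls included, had their serum (5%) replaced by 0.5% bovine serum albumin overnight. They then received no TGF-β1 or 10 ng/ml of it, and RNA was collected at 2 h. Each group holds 3 arrays, 1 from each of 3 independent harvests, and the arrays limit how precisely a change is known. The title of the study places the experiment in work on the proliferation of blood progenitors.

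TGF-β1 binds a pair of receptor kinases at the cell surface, which phosphorylate SMAD2 and SMAD3. These join SMAD4, enter the nucleus and bind short DNA elements together with partner factors, so that early target genes change within hours. Well-known early targets include the pathway's own inhibitors, such as Smad7 and Skil, and the outcome depends strongly on the cell type. In blood progenitors TGF-β1 is known as a brake on proliferation.

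The genes have no common pathway in textbook accounts. Kcne3 and Tmem119 encode single-pass membrane proteins, Sec14l2 a lipid-binding protein and Pald1 a phosphatase-like protein. Luzp1, Rilpl1 and Nek6 encode proteins of the centrosome, the primary cilium or the mitotic spindle, and Nol4l a nuclear protein. They lie on 6 chromosomes of the reference (2, 4, 5, 7, 10 and 11), with Nol4l and Nek6 both on chromosome 2 and Tmem119 and Rilpl1 both on chromosome 5.

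The sequence around the annotated starts was searched for elements that SMAD proteins are known to bind. RefSeq promoter windows of assembly GRCm38.p6, from 250 bases before to 50 bases after a start, were at hand for 7 of the 8 genes (10 windows, all but Tmem119). On either strand, CAGAC, the core of the CAGA element, occurred in 6 of the 7 genes (85.7%), against 52.7% of the 12516 tested genes that have a window. GGCGCC, a GC-rich SMAD element, also occurred in 6 of the 7 (85.7%), against 20.1% of tested genes and 6 of the 28 other risen genes with a symbol and a window (21.4%). GGCGCC reads the same on both strands. Matches to different motifs can share at most 1 end base, and in the windows printed here none do. The palindrome GTCT followed directly by AGAC was in 0 of the 7, and in 0.256% of tested genes. CAGAC and GGCGCC stood together for 5 of the 7 genes (71.4%), which had both in a single window, against 9.15% of tested genes and 3 of the 28 other risen genes (10.7%). The windows of the 8 genes were richer in G and C than most, with a median of 71.2% against 58.3% for tested genes. Among windows of tested genes with at least 70% G and C, 43.5% held GGCGCC and 37.4% CAGAC, and of the 6 such windows of the 8 genes 4 held GGCGCC, 3 CAGAC and 3 both, which 15.7% of the GC-rich windows held. These 6 windows came from Pald1, Rilpl1, Nol4l and Nek6. Nol4l and Nek6 each gave more than 1 of them, and those of Nek6 overlap in sequence. The limit of 70% was set after the windows had been seen. A match is a description of letters and not a shown binding site.

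The windows that hold both elements are printed 5′ to 3′ on the strand of the gene, with matches to CAGAC, to its reverse complement GTCTG and to GGCGCC in capitals, since they show how the elements are placed.
Kcne3, chr7:100178433-100178732, plus strand: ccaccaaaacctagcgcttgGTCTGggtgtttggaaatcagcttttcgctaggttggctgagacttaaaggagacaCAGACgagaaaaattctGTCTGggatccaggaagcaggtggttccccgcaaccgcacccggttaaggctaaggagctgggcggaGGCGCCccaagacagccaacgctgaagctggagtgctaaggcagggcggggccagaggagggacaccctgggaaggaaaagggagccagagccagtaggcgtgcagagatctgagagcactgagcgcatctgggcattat
Luzp1, chr4:136469511-136469810, plus strand: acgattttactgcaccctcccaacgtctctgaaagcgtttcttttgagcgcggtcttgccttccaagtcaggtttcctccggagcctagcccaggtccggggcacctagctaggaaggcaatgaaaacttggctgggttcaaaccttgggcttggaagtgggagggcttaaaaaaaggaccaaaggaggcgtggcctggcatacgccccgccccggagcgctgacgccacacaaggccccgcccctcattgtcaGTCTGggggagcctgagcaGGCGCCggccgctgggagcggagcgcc
Pald1, chr10:61383290-61383589, minus strand: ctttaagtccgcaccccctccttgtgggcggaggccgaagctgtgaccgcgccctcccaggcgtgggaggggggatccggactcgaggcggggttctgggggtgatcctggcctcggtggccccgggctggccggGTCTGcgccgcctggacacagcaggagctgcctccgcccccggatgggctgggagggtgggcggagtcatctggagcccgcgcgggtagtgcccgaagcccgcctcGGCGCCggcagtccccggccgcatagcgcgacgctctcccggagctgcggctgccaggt
Rilpl1, chr5:124531342-124531641, minus strand: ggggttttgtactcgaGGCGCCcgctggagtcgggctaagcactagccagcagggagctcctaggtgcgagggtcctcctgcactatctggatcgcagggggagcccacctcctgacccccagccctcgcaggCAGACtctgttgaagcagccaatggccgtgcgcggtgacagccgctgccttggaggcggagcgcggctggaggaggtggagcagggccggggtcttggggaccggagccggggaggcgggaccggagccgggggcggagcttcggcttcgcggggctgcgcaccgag
Nek6, chr2:38511447-38511746, plus strand: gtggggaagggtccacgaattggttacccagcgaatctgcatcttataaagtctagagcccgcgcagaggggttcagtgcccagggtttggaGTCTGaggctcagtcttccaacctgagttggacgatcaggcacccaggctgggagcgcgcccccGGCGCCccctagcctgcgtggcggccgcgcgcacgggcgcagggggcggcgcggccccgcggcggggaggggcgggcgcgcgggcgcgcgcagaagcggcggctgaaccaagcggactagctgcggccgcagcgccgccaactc
Kcne3 was the only one of the 5 with 3 CAGAC matches, whose first bases lie at -230, -174 and -157 from this start, and its GGCGCC lies at -90. In Luzp1 both elements lie just after the start, at 5 and 24. In Rilpl1 the order is turned, with GGCGCC at -234 and CAGAC at -117. In Pald1 the pair lies at -115 and -9 and in Nek6 at -158 and -94. A second Kcne3 window, at another annotated start, has 1 CAGAC match at 6, and the Sec14l2 window has 1 at -174.

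The membrane protein genes Kcne3 and Tmem119 were both more than 10 times as bright after treatment. Signals are given as a percent of the array's 75th percentile of signal over all spots that are not controls, and they compare arrays for a probe, never probes with each other. Kcne3 encodes an accessory subunit that joins potassium channel pores, KCNQ1 among them, and keeps them open. Its brightest probe read 21.5%, 21.8% and 17.6% in untreated harvests 1, 2 and 3, and 416%, 359% and 326% in the treated samples of the same harvests. The groups did not overlap, and the lowest treated array stood far above the highest untreated one. The change was 18.1-fold (log2 4.18, moderated SE 0.16, n = 3 per group), or 19.4-fold, 16.5-fold and 18.6-fold by harvest. It ranked 1 among genes with a symbol by their brightest probes, but Rilpl1 had the larger log2 change with the mean of a gene's probes (4.22 against 4.10), with array weights (4.30 against 4.17) and without untreated replicate 2 (4.46 against 4.23). The same held within slide 1 (4.83 against 4.42). A second Kcne3 probe gave 16.2-fold (log2 4.02, SE 0.19). RNA came from whole cultures, in which more cells with a transcript and more transcript per cell cannot be told apart.

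Tmem119 encodes a membrane protein that promotes osteoblast differentiation in mice and serves as a marker of mouse microglia, where TGF-β helps to keep it expressed. Its single probe read 64.2%, 83.1% and 81.1% in the untreated samples and 907%, 805% and 790% after treatment. The treated arrays were close together, and the lowest untreated array belonged to the harvest with the highest treated one. The change was 11-fold (log2 3.46, SE 0.16), and 14.1-fold, 9.69-fold and 9.75-fold by harvest.

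**Figure D1:**
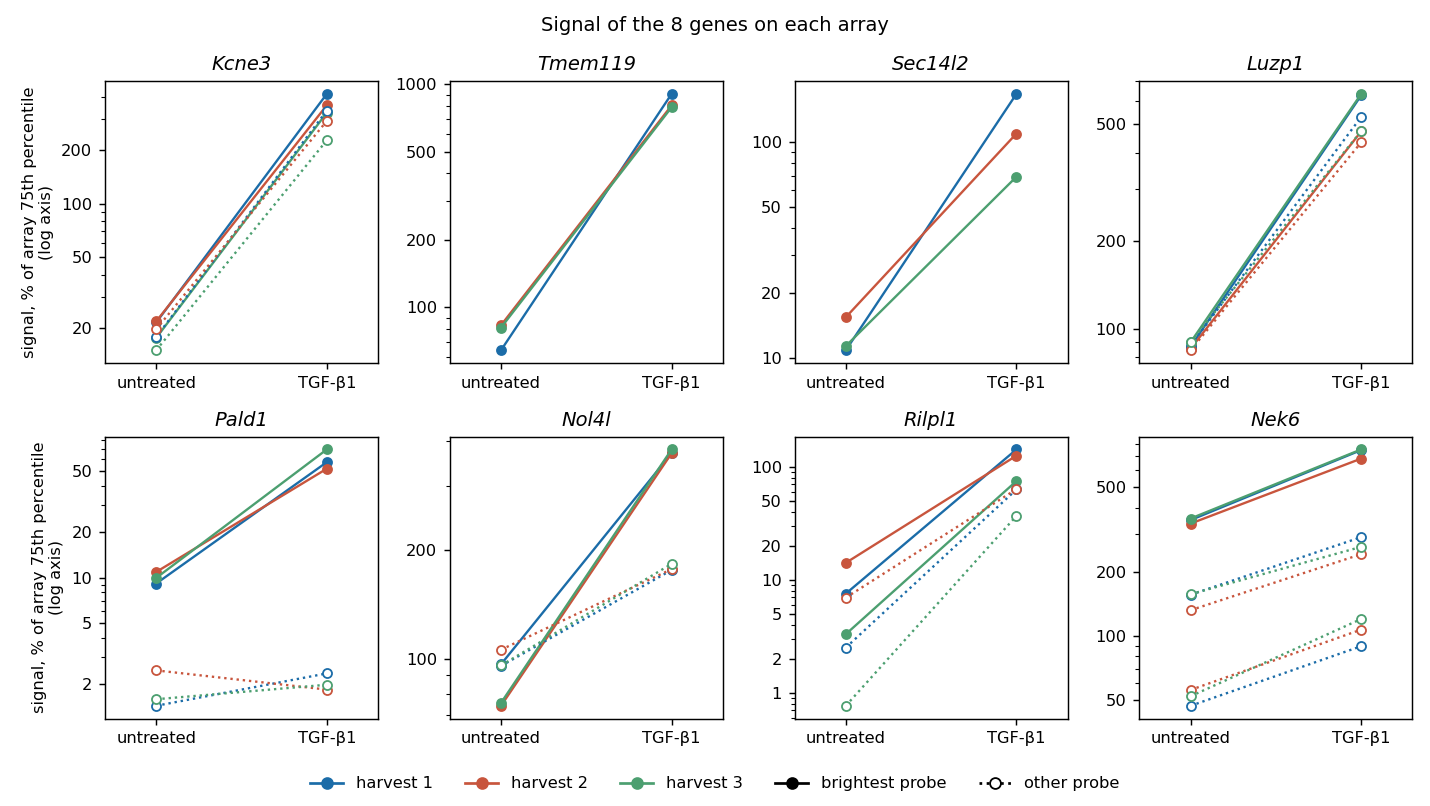
Signal of each gene on the 6 arrays as a percent of the array's 75th percentile (log axis, a scale of its own for each gene). Points are single arrays, lines join the untreated and the treated sample of a harvest, filled points are the brightest probe and open points the others. Every line goes up except that of the second Pald1 probe in harvest 2.

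Sec14l2 encodes a SEC14-like protein, also called supernatant protein factor, that binds lipids such as α-tocopherol and stimulates squalene monooxygenase in vitro. Its probe read 10.9%, 15.5% and 11.4% untreated and 168%, 110% and 69.4% treated. The groups did not overlap, but the treated arrays spread more than for Kcne3 or Tmem119. The change was 8.72-fold (log2 3.12, SE 0.33), with 15.4-fold, 7.07-fold and 6.07-fold by harvest, so that the largest was 2.54 times the smallest.

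Pald1 encodes paladin, a protein with phosphatase domains that in mice is prominent in endothelium and acts on phosphoinositides. Its brightest probe read 9.15%, 10.9% and 9.96% untreated and 57.4%, 52% and 69.6% treated, a 5.93-fold difference (log2 2.57, SE 0.16). The treated arrays all lay above the untreated ones and the fold differed little by harvest (6.27, 4.77 and 6.99). The second Pald1 probe showed no such difference. It read 1.44%, 2.46% and 1.59% untreated and 2.35%, 1.84% and 1.98% treated, with overlapping groups and a log2 change of 0.20 (SE 0.23). Its processed signal on untreated harvest 3, after background subtraction, was 12.6 units. With the mean of both probes the gene's log2 change was 1.39, and with another background correction (normexp) the brightest probe gave 1.55.

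Luzp1, Rilpl1 and Nek6 encode proteins of the cytoskeleton and the centrosome. LUZP1 is a leucine zipper protein that binds actin filaments and restrains assembly of the primary cilium. Its brightest probe read 87%, 85.7% and 90.1% untreated and 628%, 473% and 635% treated. The untreated arrays were within a narrow range, and all treated arrays lay above them. The change was 6.54-fold (log2 2.71, SE 0.16), and a second probe gave 5.46-fold (log2 2.45, SE 0.13).

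Rilpl1 encodes a RILP-like protein that binds phosphorylated RAB GTPases, the substrates of the kinase LRRK2, near the centrosome. Its brightest probe read 7.53%, 14.1% and 3.3% untreated and 142%, 125% and 74.6% treated. The groups did not overlap, yet the untreated arrays differed among harvests more than those of the other 7 genes (SD 1.05 log2 units, against 0.04 to 0.28). The change was 15.6-fold (log2 3.96, SE 0.53), with 18.9-fold, 8.88-fold and 22.6-fold by harvest. The standard error fell to 0.29 with the replicate block. The processed signal on untreated harvest 3, from which background is already subtracted, was 26.2 units, and the probe was well above background on all 6 arrays. Normexp lowered the log2 change to 2.57.

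The second Rilpl1 probe was dimmer and was well above background on 2 of the 3 untreated arrays. It read 2.51%, 6.94% and 0.768% untreated and 62.8%, 63.2% and 36.7% treated. Harvest 2 was again the highest untreated array and harvest 3 the lowest. By harvest the change was 25-fold and 9.11-fold in harvests 1 and 2. No fold is given for harvest 3, where the untreated array was not well above background, and the log2 change over all arrays, 4.47 (SE 0.75), includes that array.

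Nek6 encodes a NIMA-related kinase that is activated by NEK9 and works with NEK7 in building the mitotic spindle. Its brightest probe read 350%, 337% and 356% untreated and 747%, 681% and 752% treated. The spread within each group was small beside the gap between them. The change was the smallest of the 8 genes, 2.09-fold (log2 1.06, SE 0.12), and the most even across harvests (2.13-fold, 2.02-fold and 2.12-fold). Probes 2 and 3 of Nek6 gave log2 changes of 0.84 (SE 0.14) and 1.03 (SE 0.16).

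Nol4l encodes a nuclear protein of little known function whose gene is a fusion partner of RUNX1 and PAX5 in human leukaemia. Its brightest probe read 96.6%, 74.2% and 75.6% untreated and 370%, 370% and 379% treated, a 4.58-fold difference (log2 2.19, SE 0.15). The treated arrays were nearly equal. Another Nol4l probe gave 95.6%, 106% and 95.9% untreated and 176%, 177% and 183% treated. Its groups did not overlap either, but its log2 change was smaller, 0.85 (SE 0.12), and the mean of both probes gave 1.52. Which part of the transcript each probe reads is not given in the sources used here.

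**Figure D2:**
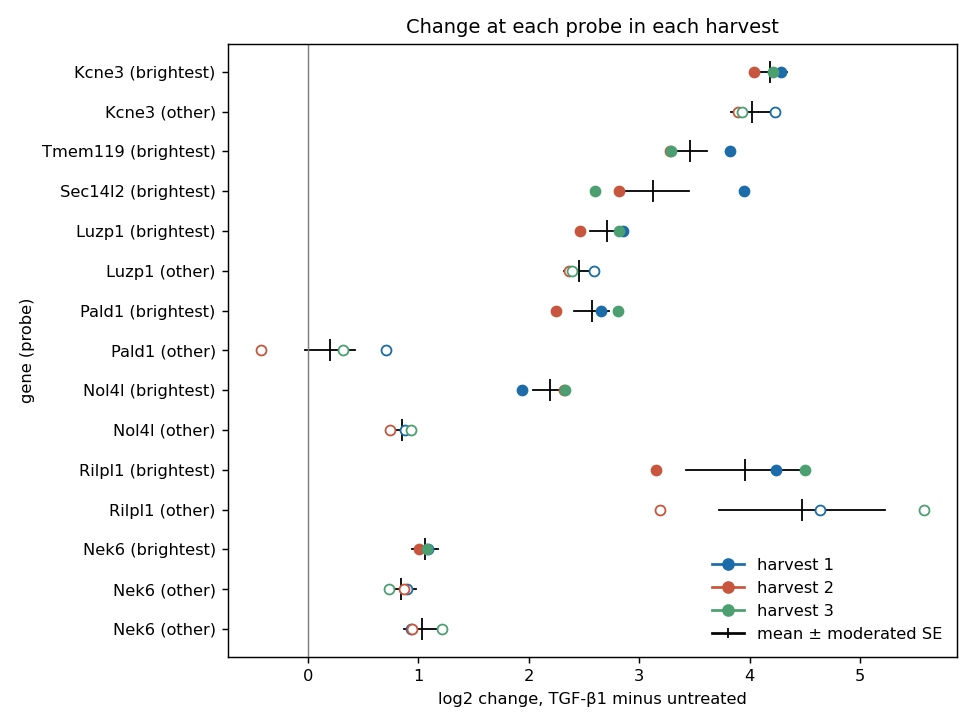
Log2 change at each of the 15 probes (TGF-β1 minus untreated). Points are the 3 harvests, filled for a gene's brightest probe and open for its others, and the vertical tick with its line is the mean with the moderated standard error. Rilpl1 and Sec14l2 spread most among the genes' brightest probes, and the second probes of Pald1 (0.20) and Nol4l (0.85) lie far below the brightest ones (2.57 and 2.19).

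Over the 8 genes the median log2 change was 2.92, or 7.55-fold, against -0.01 over all genes and transcripts tested. For all 8 the treated arrays lay above every untreated array, as was true of 5.36% of all features. By limma with Benjamini-Hochberg adjustment at 0.05, 7 of the 8 were called higher (0.226% of all features were, and 0.0274% were called lower), and with the replicate number as a block all 8 were (0.545%). Rilpl1 passed with the block and not without it. These counts follow from how the genes were chosen and are not evidence about them. In order of size the genes held ranks between 1 and 143 among the 15655 genes with a symbol, with Kcne3, Rilpl1, Tmem119 and Sec14l2 among the first 10. No numeric limit was part of the choice. The named rise just above that of Nek6 in size among called genes was Abcb10 (log2 1.08, SE 0.13), and Nek6 was the smallest called. Kcne3 was followed by Ldlrad4 (log2 4.07, SE 0.27). Among genes with a symbol, Bbc3 (log2 1.23), Csnk1e (1.35) and Icosl (1.15) lay just outside the call without the block, with adjusted p of 0.0502, 0.0516 and 0.0529 by limma. With the block they passed, at 0.0381, 0.0348 and 0.0404 in the same order.

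The arrays lay on 2 slides, with harvest 1 whole on slide 1, harvest 2 whole on slide 2 and harvest 3 split between them. Each slide has a single array of one of the groups. Adding the slide to the fit gave a median change of 2.98 for the 8 genes. Slide 1 alone gave 3.24 and slide 2 alone 2.58. For Rilpl1 these values were 3.80, 4.83 and 2.77. Sec14l2 had 3.20, 3.92 and 2.49 in the same order, and Kcne3 4.20, 4.42 and 3.97. Tmem119 had 3.65 on slide 1 and 3.26 on slide 2, and the slides differed by less for the other 4 genes.

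The levels of the 8 genes were also compared among harvests. A fit without the replicate block passes genes with a small spread among harvests more readily, so the counts partly follow from how the genes were chosen and are a description. In a limma F test of the replicate number beside the treatment, 0 of the 8 passed after Benjamini-Hochberg adjustment. Over all features 3.11% passed (906 of 29163). At an unadjusted p under 0.05 it was 1 of the 8, Rilpl1, against 21.5% of all features. Of the 35 other named genes that rose, 0 passed and 3 had an unadjusted p under 0.05. The range of harvest means had a median of 0.22 log2 units over the 8 genes, 0.28 over the 35 other rises and 0.37 over all features, and for Rilpl1 it was 1.42. Rilpl1 read highest in harvest 2 and lowest in harvest 3 in the untreated samples, and highest in harvest 1 in the treated ones. The summed signal of 7 fibroblast and mesenchymal markers, most of it from Dcn and Col1a2, was 2350%, 6710% and 434% in untreated samples 1, 2 and 3 and 2670%, 6450% and 416% in the treated ones. Thy1 of the same list was highest in harvest 3 (205%, 203% and 266% untreated). The part of these cells in the Rilpl1 levels was not tested.

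Relatives and partners of the 8 genes did not pass the test. Of 98 genes in 9 lists 83 were measured, and 0 were called in either direction by limma, with or without the replicate block, against 0.253% and 0.664% of all features. At an unadjusted p under 0.05 there were 8 of the 83, against 5.77% of all features, and the median log2 change was -0.05. Among channel genes, Kcne1 and Kcne2, accessory subunits like Kcne3, had log2 changes of 0.03 (SE 0.19) and -0.48 (SE 0.20), and the pore gene Kcnq1 had 0.04 (SE 0.18). The 10 measured genes of that list had a median of 0.03. The lipid carriers related to Sec14l2 had a median of -0.25 over 8 genes, with Sec14l1 at 0.11 (SE 0.19) and Sec14l3 at 0.13 (SE 0.17). Sqle, the squalene monooxygenase gene, had -0.38 (SE 0.16) and Fdft1, the squalene synthase gene, -0.28 (SE 0.20), and 8 of 9 genes of squalene and sterol synthesis were lower in all 3 harvests, as were 20% of all features. None of the 9 was called, and 2 had an unadjusted p under 0.05 by limma.

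No partner among the centrosome and kinase genes was called. The 9 measured genes of the LUZP1 list were partners, cilium assembly genes and the like-named Luzp2. They ran from -0.34 (Luzp2) to -0.01. Lima1, an actin-binding partner, had -0.28 (SE 0.19) and Ccp110, which caps centrioles, had -0.14 (SE 0.16). Rilp and Rilpl2, the relatives of Rilpl1, had 0.07 (SE 0.14) and -0.18 (SE 0.19), and the 11 genes of that list had a median of -0.01. The highest of them was Lrrk1, a kinase gene, at 0.86 (SE 0.25, adjusted p = 0.462 by limma, 0.0916 with the replicate block), with groups that did not overlap. Nek7, the closest relative of Nek6, had 0.22 (SE 0.14) and its activator gene Nek9 had -0.03 (SE 0.14), with a median of -0.03 over 10 genes. Inpp5d, which encodes a phosphoinositide phosphatase, had 0.77 (SE 0.13), and its list of 10 had a median of -0.07. Nol4, the relative of Nol4l, had -0.15 (SE 0.22).

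Genes that mark mouse microglia or depend on TGF-β there, as Tmem119 does, had a median of 0.31 over 15 measured genes, with 0 called and 3 at an unadjusted p under 0.05. With the slide in the fit it was 0.09; it was 0.05 without untreated replicate 3, 0.07 without treated replicate 2 and -0.09 with normexp. Of this list, 7 genes were higher in all 3 harvests, as were 14.1% of all features, and 5 differed among harvests in the F test, as did 3.11%. Sall1, a transcription factor of microglia, had 0.11 (SE 0.22) and Olfml3, a secreted protein of microglia, 0.10 (SE 0.27). P2ry12, a defining receptor gene of microglia, did not pass the filter on dim probes.

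**Figure D3:**
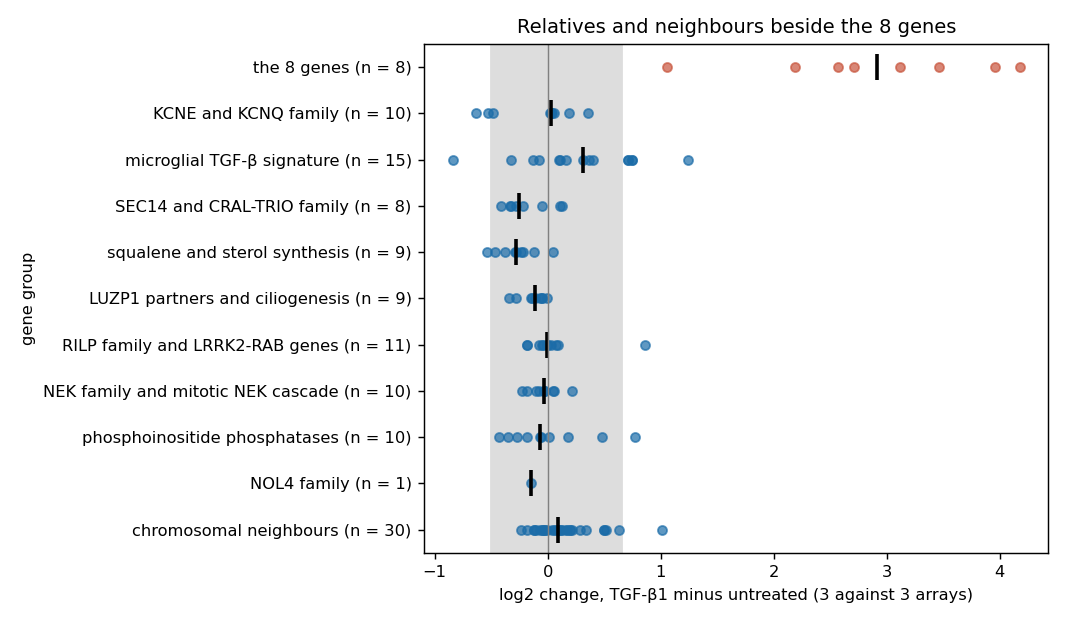
Log2 change (TGF-β1 minus untreated) of the 8 genes, of 9 lists of relatives and partners, and of the chromosomal neighbours; each point is a gene, the thick tick is the median, and n is the number measured. The grey band holds the middle 95% of all features, from -0.50 to 0.66, and the 8 genes lie between 1.06 and 4.18, to the right of it.

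Genes beside the 8 on the chromosome did not pass either. The 2 nearest protein-coding genes on each side make 32 neighbours in the RefSeq order, of which 30 were measured. By limma 0 were called with or without the replicate block, against 0.664% and 0.253% of all features. At an unadjusted p under 0.05 there were 2, against 5.77% of all features. Of these, Pgm2l1, the next gene after Kcne3, had 0.63 (SE 0.13), with 0.64, 0.72 and 0.52 by harvest. Rnf215, the next gene after Sec14l2, had 0.50 (SE 0.14), with 0.55, 0.52 and 0.42. The median log2 change was 0.09, with a range from -0.24 to 1.01. The largest value was that of P4ha3, a collagen prolyl hydroxylase gene near Kcne3, at 1.01 (SE 0.77), with 0.93, -0.07 and 2.18 by harvest. The endogenous Lhx2 gene is a neighbour of Nek6, and the Lhx2 probe had 0.04 (SE 0.22). Whether that probe also covers the introduced transcript is not given.

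The genes whose profile over the 6 arrays was most like the mean of the 8 were Jund (Pearson r 0.9989), Ldlrad4 (0.9976), Smad6 (0.9971), Skil (0.997) and Golm1 (0.9966), out of 15630 genes with a symbol. Their log2 changes were 2.31, 4.07, 2.76, 3.46 and 1.93. Each of the 8 genes had an r between 0.956 (Rilpl1) and 0.999 (Kcne3) with the mean of the other 7. All these values share the same arrays and the same treatment contrast, so they describe the profiles only.

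**Figure D4:**
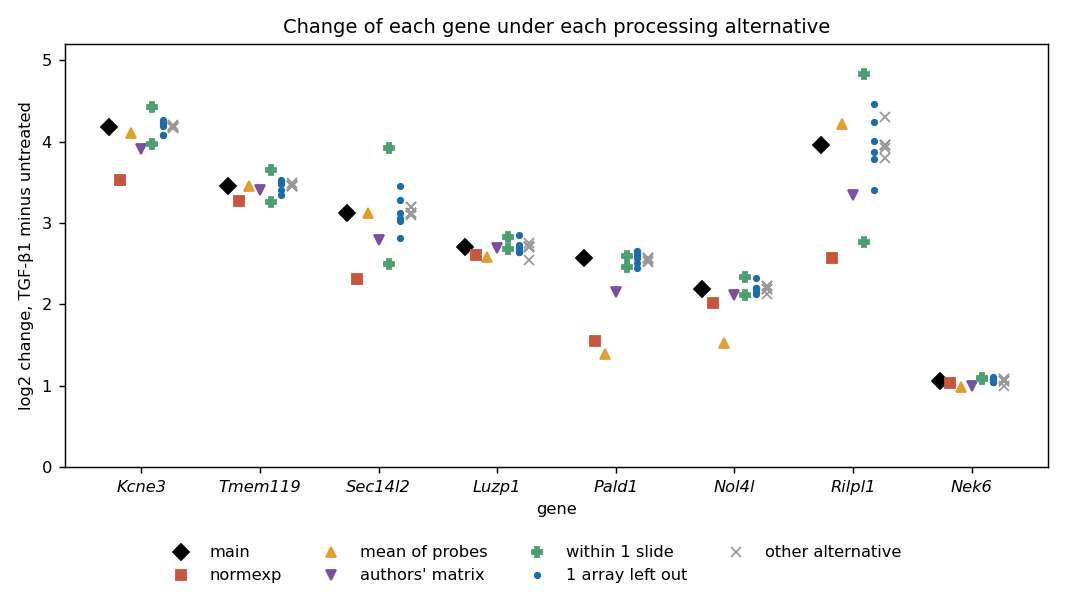
Log2 change of each gene (TGF-β1 minus untreated) in the main processing (black diamonds) and under 17 alternatives. All values are above 0; Pald1, Rilpl1 and Sec14l2 fall most with normexp (to 1.55, 2.57 and 2.31), and Pald1 and Nol4l fall with the mean of their probes (to 1.39 and 1.52).

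All 8 progenitor markers were well above background on every array, and their percents, like the others, are not compared between probes. Lyl1 read 5088% to 8973%, Cd34 4928% to 7351%, Ptprc 1086% to 1882% and Spi1 32.3% to 45.3%. Lhx2, the gene that names the line, read 4.27% to 6.87%, and whether its probe covers the introduced transcript is not given in the sources used here. Lyz2 of macrophages read 12611% to 15648%, Spp1 of osteoblasts 1613% to 2207%, Pecam1 of endothelium 92% to 134% and Dcn of fibroblasts 51.7% to 4359%. The 8 progenitor markers had summed signals of 13800% to 18200% untreated and 17100% to 20900% treated, the 5 macrophage and microglia markers 14000% to 17900% and 14500% to 16300%, the 5 osteoblast markers 2070% to 2440% and 1910% to 2410%, and the 5 endothelial markers 205% to 265% and 227% to 266%. No marker was called after treatment in the fit without the block. The markers of osteoblasts and endothelium, cells known for Tmem119 and Pald1, had overlapping sums in the groups. Most of the osteoblast sum came from Spp1. The single osteoblast markers had log2 changes from -0.62 to 0.5, with 3 of the 5 above 0, and the endothelial ones from -0.09 to 0.17. P2ry12 of microglia, Ibsp of osteoblasts and Tek of endothelium did not pass the filter on dim probes. The part of such cells in the changes of the 8 genes was not tested.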

How the data were processed

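Total RNA of 6 samples was labelled with Cy3 and hybridised to 1-colour Agilent arrays of design 014868 (annotated on mm8), and the file headers name Feature Extraction 10.1.1.1. The deposited intensity of a spot (its processed signal) is background-subtracted and detrended within the array, per the file headers, which record spatial and multiplicative detrending; its 75th percentile differs between arrays. A deposited matrix gives log2 values that follow the log2 median spot signal (r at least 0.99951), with medians from 7.383 to 7.417. Of its making, the submitters' processing notes list limma; its scaling is not given in the sources used here.

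Each processed signal was divided by its array's 75th percentile and put on the log2 scale, with the percentile taken over 43379 non-control spots, with outlier spots (43 to 101 per array) left out and 0 spots saturated. That percentile was 794.2 to 1031 units, and 82.9% to 90.3% of probes were well above background. A probe entered if this held on at least 3 of the 6 arrays (36390 did). Probes were named through unversioned RefSeq accessions (assembly GRCm38.p6; 23374 named, 17800 not), and a gene is read by its brightest passing probe. Each probe of the 8 genes has 1 spot and no value was missing. The treatment test was limma 3.58.1 (lmFit and eBayes without a covariate, R 4.3.3) and Benjamini-Hochberg adjustment over all features at 0.05; harvests with a moderated F test, which leaves out 32 features with a missing value. The number of arrays limits the precision. Same-numbered samples deviated together (r 0.636, 0.786 and 0.557), and the labels and the harvests give the pairing. The main fit left this pairing out, and the fit with the replicate block, which uses it, was run as an alternative. The fits were tested on simulated data first. There the fit without the block called 23% of features changed by 1 log2 unit and 89% of those changed by 2. With the replicate block the shares were 76% and 100%. A gene that was not called may therefore still have changed.

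The 8 genes, lists and motifs were chosen with earlier results of these data known. Named are all 8 genes with every probe, up to 4 called and the first 2 measured genes of each list, the neighbour with the largest change, the brightest marker of each list, the 5 most alike genes, and the rises next to the 8 in size. Kcnq1, P2ry12, Lhx2, Cd34, Ptprc, Spi1, Thy1, Col1a2, Lrrk1, Bbc3, Csnk1e, Icosl and the genes of the closing section were added after their values were seen. The same holds for Pgm2l1, Rnf215 and Luzp2. Some genes that this rule takes are not reported here. Files hold no mean spot signal, so normexp (offset 50) used the median spot and background signals.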

Additional observations from a re-analysis of the deposited data

How the results depend on the processing

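All 136 values of the 8 genes under 17 alternatives stayed positive, and 119 of them moved by less than the SD between harvests. The median of the 8 ran from 2.44 with normexp, the only alternative that moved it by more than that SD, to 3.24 within slide 1, and from 2.73 to 3.04 with single arrays left out; with the replicate block it was 2.92. The cause was not tested. The count of genes and transcripts called, 74 in the main fit, was 5 with normexp, 172 in the authors' matrix values, 194 with the replicate block, 309 with array weights and 7 to 24 with 1 array left out, which leaves fewer samples. Of the 8 genes, 3 were called with normexp, 3 without untreated replicate 1 and 4 or 5 without any other array. Relatives past the threshold were 2 with array weights, Inpp5d among them, and 0 otherwise; neighbours stayed at 0. Among the genes named, the replicate block changed the calls of Rilpl1, Bbc3, Csnk1e and Icosl, all to called. None of the 8 passed the harvest test under any of its 13 alternatives, among which the share of all features called ran from 1.57% (458) without untreated replicate 2 to 54.6% (15928) with normexp, against 3.11% (906). With normexp Kcne3, Sec14l2, Pald1 and Rilpl1 moved by more than their SD between harvests. Signal over background limits the second Rilpl1 probe, which 1 untreated array did not measure above it. Normexp shifted the median of all features to -0.16.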

Other observations

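Some relatives outside the naming rule had larger values than the rest of their lists and are given here as values, chosen after they were seen. Adgrg1, an adhesion G-protein-coupled receptor gene, read 2822%, 2183% and 1774% untreated and 4224%, 3769% and 3281% treated (log2 change 0.75, SE 0.21, adjusted p = 0.411 by limma), and its groups did not overlap. With the replicate block its adjusted p by limma was 0.0955. Lrrk1, which encodes a kinase related to LRRK2, read 65%, 45% and 67% untreated and 137%, 81.6% and 105% treated (log2 change 0.86, SE 0.25, adjusted p = 0.462 by limma, 0.0916 with the replicate block). Inpp5d, the SHIP1 phosphatase gene of blood cells, had an adjusted p of 0.123 by limma (0.0847 with the replicate block and 0.0274 with array weights).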
